A study of Mus musculus with 7 samples.

Results

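Meiotic cohesin and synaptonemal complex genes were followed in single oocytes with and without the histone methyltransferase gene Setd1b. The list held 10 genes, Rec8, Smc1b, Smc3, Stag3, Rad21l, Sgo2a, Sycp1, Sycp2, Sycp3 and Syce2, out of 33437 oocyte transcripts in the deposited table. A gene was taken from the transcript that carried its name on its own strand, which found 8 genes, and Sycp3 and Sgo2a were found by position because their transcripts carried the name of a neighbour on the opposite strand. Of the 10 genes, 9 had enough reads to be tested, and Rec8 did not.

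The libraries were made from germinal vesicle (GV) oocytes, oocytes arrested in the first meiotic prophase, with 1 oocyte per library, and a level is given as RPM, the reads of a transcript per 1000000 mapped reads of its library. Donors were females of 21 days, of strain C57BL6 in the labels and C57BL/6OlaHsd in the methods of the study, and all of them carried Setd1b as floxed/floxed. In 4 libraries the female was Gdf9-Cre positive (Setd1b cKO) and in 3 Gdf9-Cre negative (Setd1b WT). Gdf9-Cre is active in oocytes from early follicle growth onwards, so the meiotic chromosomes had already been assembled with Setd1b present, and which oocytes came from the same female was not stated. The methods of the study also count heterozygous females with Cre among the WT, whereas the labels of these 3 libraries give no Cre.

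Cohesin is a ring of SMC and kleisin proteins that holds sister chromatids together, and germ cells exchange several of its mitotic subunits for meiotic ones. The synaptonemal complex is a protein ladder that zips homologous chromosomes together, with lateral elements along the chromosome axes, transverse filaments across the gap and a central element in its middle. In the female it is taken apart around birth. Cohesin laid down in the fetal ovary has to hold the chromosomes of the arrested oocyte until ovulation. SETD1B methylates lysine 4 of histone H3, and the comparison asks how the RNA of these genes differed when the oocyte lacked it.

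RNA of the axis gene Sycp2 fell to less in every Setd1b cKO oocyte than in any Setd1b WT oocyte, with a mean 3.48-fold higher in WT, and no other gene of the list passed the threshold. The threshold was a limma Benjamini-Hochberg adjusted p under 0.05 over all 18179 transcripts tested and a change over 2-fold. Of 9 genes tested 1 fell, which is 11.1%, against 1.95% of all transcripts tested, and 0 rose, against 3.76% of all transcripts. An unadjusted p under 0.05 was reached by 2 of the 9 genes, Sycp2 and Smc1b, which is 22.2% against 21.7% of all transcripts tested, and voom on reads recovered from the values also called 1 lower and 0 higher. The median log2 fold change was -0.10 over the 9 genes, 3 above 0 and 6 below, and 0.12 over all transcripts tested. Libraries of the genotypes did not overlap for the same 2 genes, 22.2% of those tested, which is close to the 20.3% of all transcripts tested.

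**Figure D1:**
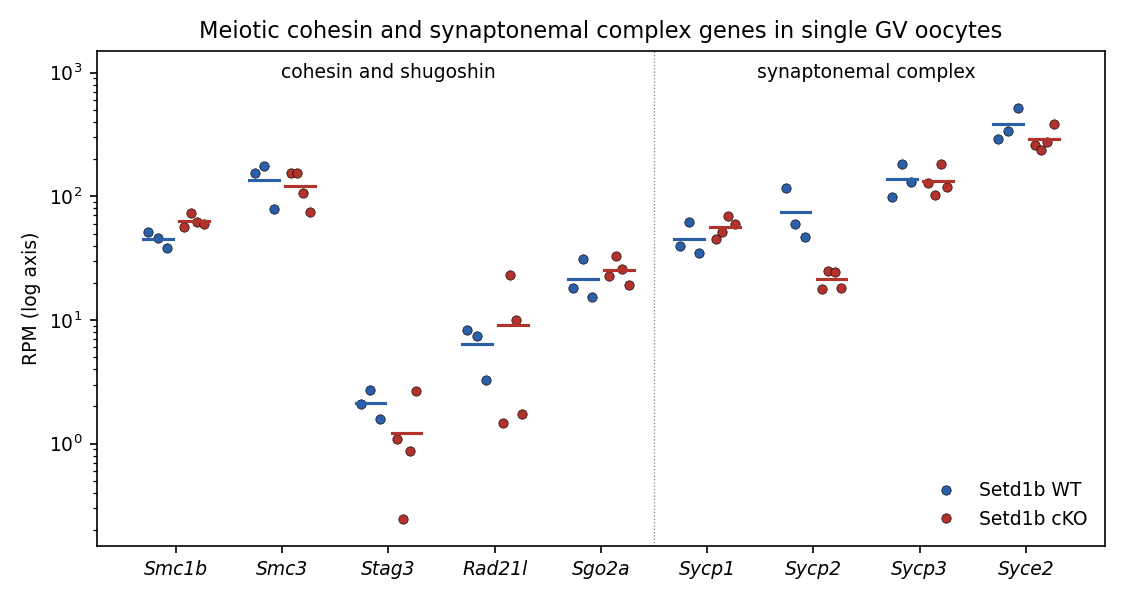
Level of each tested gene in each oocyte, in RPM (log axis), with blue points for the 3 Setd1b WT libraries, red points for the 4 Setd1b cKO libraries and bars for the means. Sycp2 sits between 17.8 and 25.0 RPM in Setd1b cKO and between 46.6 and 116 RPM in Setd1b WT. Rec8 had 0 reads on its transcript and is not drawn.

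The promoters of Sycp2, of Sycp3, the other axis gene, and of Smc1b, the other gene whose genotypes did not overlap, are shown because of these contrasts. They run from 250 bases before to 50 bases after the RefSeq start on GRCm38.p6, 5′ to 3′ on the strand of the gene, and all 10 genes matched an entry. Capitals mark TCCCGC or its reverse complement GCGGGA, the core of the site read by E2F proteins, and CACGTG, the E-box read by MAX and its partners. No marked copies overlap, and CACGTG reads the same on both strands. Both motifs are known as landing sites of a repressor complex that silences meiotic genes in somatic cells.
Sycp2, chr2:178407609-178407908, minus strand: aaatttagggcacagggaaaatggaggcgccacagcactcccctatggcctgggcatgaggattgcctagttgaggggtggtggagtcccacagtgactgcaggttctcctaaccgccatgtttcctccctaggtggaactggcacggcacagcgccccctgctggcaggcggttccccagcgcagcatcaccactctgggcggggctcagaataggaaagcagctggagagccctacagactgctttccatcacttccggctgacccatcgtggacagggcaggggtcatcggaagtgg
Sycp3, chr10:88459337-88459636, plus strand: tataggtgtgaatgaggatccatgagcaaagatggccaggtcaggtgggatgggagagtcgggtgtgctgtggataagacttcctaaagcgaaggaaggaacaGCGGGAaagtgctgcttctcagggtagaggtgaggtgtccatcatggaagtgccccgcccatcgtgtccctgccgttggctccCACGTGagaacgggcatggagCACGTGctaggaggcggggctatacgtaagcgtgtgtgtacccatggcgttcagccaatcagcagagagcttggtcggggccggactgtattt
Smc1b, chr15:85131908-85132207, minus strand: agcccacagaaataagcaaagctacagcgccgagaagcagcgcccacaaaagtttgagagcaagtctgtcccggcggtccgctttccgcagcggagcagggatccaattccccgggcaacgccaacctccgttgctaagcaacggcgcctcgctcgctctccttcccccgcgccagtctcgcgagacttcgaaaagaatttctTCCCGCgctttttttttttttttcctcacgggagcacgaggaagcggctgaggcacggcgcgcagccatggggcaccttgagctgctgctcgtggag

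The Sycp2 window held 10 CpG dinucleotides, 0 copies of TCCCGC on either strand and 0 of CACGTG. The Sycp3 window held 15 CpG dinucleotides, 1 TCCCGC and 2 CACGTG, and the Smc1b window 29 CpG dinucleotides, 1 TCCCGC and 0 CACGTG. Over the list, TCCCGC on either strand was in 8 of 10 windows, against 20.0% of the 32851 RefSeq promoters, and the exceptions were Sycp2 and Rad21l. CACGTG was in 3 of 10, those of Stag3, Sycp1 and Sycp3, against 7.15% of all promoters. Median CpG content was 19.0 per 300 bases in the list and 7 in all promoters, whose quartiles were 3 and 20. TCCCGC and CACGTG each contain a CpG, and their share among promoters of like CpG content was not counted.

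These windows are not all where the oocyte transcript began. In 6 genes the RefSeq start lay within 100 bases of the 5′ end of the oocyte transcript, and in 4 genes farther away. The oocyte transcript of Sycp2 began 752 bases upstream of the RefSeq start, that of Rad21l 2104 bases upstream, and those of Smc3 and Stag3 271 and 313 bases upstream. The match of letters is a description of the window and says nothing of whether a factor was bound there in these oocytes.

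**Figure D2:**
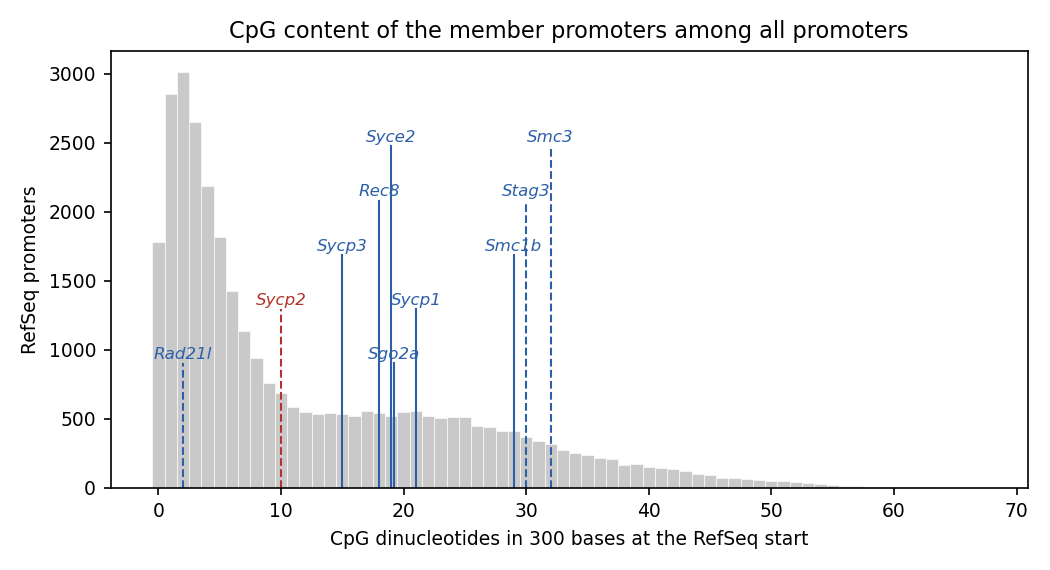
Number of RefSeq promoters (y axis) by their count of CpG dinucleotides in 300 bases (x axis, grey bars), with a line at each gene of the list, dashed where the RefSeq start lay over 100 bases from the oocyte transcript start. Sycp2 (red) stands at 10, Rad21l at 2 and the other 8 genes between 15 and 32. Line heights carry no value, and Sgo2a is drawn beside Syce2, both at 19.

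Sycp2 encodes a lateral element protein that binds SYCP3 along the chromosome axis, and its gene lies at chr2:178345293-178407685 on the minus strand of GRCm38. Its level was 17.8, 25.0, 24.4 and 18.3 RPM in Setd1b cKO replicates 1 to 4 and 116, 60.1 and 46.6 RPM in Setd1b WT replicates 1 to 3. All 4 cKO oocytes lay within a 1.41-fold range, the WT oocytes within a 2.50-fold range, and the groups did not overlap. The means were 21.4 ± 3.86 RPM (SD, n = 4) and 74.3 ± 37.0 RPM (SD, n = 3). Behind them stood 157 to 304 reads per library in cKO and 498 to 1436 in WT, and reads of amplified cDNA without molecular identifiers are not independent molecules.

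On the log2(RPM + 1) scale Sycp2 fell by 1.66 (SE 0.31, 95% interval -2.34 to -0.97, limma adjusted p = 0.0130). The call was lost without WT replicate 2, at a log2 fold change of -1.76 with an adjusted p of 0.0556, and with all 7 libraries when no filter on low values was used, at -1.66 with an adjusted p of 0.0946. Without WT replicate 1, the library with the highest Sycp2, the log2 fold change was -1.29 with an adjusted p of 0.0487. The share of mapped reads outside the transcripts differed between the genotypes, at 13.2% to 16.4% in cKO and 9.57% to 9.90% in WT. With values scaled to reads within transcripts instead, Sycp2 differed by -1.59 on the log2 scale (adjusted p = 0.0150).

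Sycp3, the axis partner of Sycp2, lies at chr10:88459569-88473236 on the plus strand, in a transcript that the table names for Chpt1. It measured 129, 103, 183 and 119 RPM in Setd1b cKO and 99.4, 184 and 130 RPM in Setd1b WT. Highest and lowest oocytes of both genotypes interleaved, and the means were 134 ± 35.0 RPM (SD, n = 4) and 138 ± 43.1 RPM (SD, n = 3). The log2 fold change was -0.03 (SE 0.27, 95% interval -0.64 to 0.57, adjusted p = 0.964), an interval that includes 0 and does not reach 2-fold either way. An opposite-strand transcript of 11.2 RPM overlapped it by 397 bases, and whether the reads were counted by strand was not stated.

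Sycp1, the transverse filament protein, measured 45.0, 51.1, 69.9 and 59.7 RPM in Setd1b cKO and 39.4, 62.2 and 34.5 RPM in Setd1b WT. WT replicate 2 reached into the cKO range and the other WT oocytes lay below it. Its log2 fold change was 0.33 (SE 0.26, 95% interval -0.24 to 0.91, adjusted p = 0.514).

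Syce2, a central element protein, had the highest levels of the list, at 259, 238, 272 and 383 RPM in Setd1b cKO and 289, 334 and 520 RPM in Setd1b WT. The cKO oocytes lay below every WT oocyte except for cKO replicate 4. Its log2 fold change was -0.38 (SE 0.26, 95% interval -0.96 to 0.20, adjusted p = 0.453). A transcript of 7.15 RPM on the other strand shared 1829 bases with it, 11.3% of its span.

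Among cohesin subunits, Smc1b encodes the meiotic form of the SMC1 arm, and its gene lies at chr15:85064689-85131964 on the minus strand. Its level was 56.4, 72.8, 62.2 and 60.0 RPM in Setd1b cKO and 51.5, 45.6 and 38.4 RPM in Setd1b WT. Every cKO oocyte was above every WT oocyte, the reverse of Sycp2. The means were 62.8 ± 7.05 RPM (SD, n = 4) and 45.2 ± 6.58 RPM (SD, n = 3). On the log2(RPM + 1) scale Smc1b was higher in cKO by 0.47 (SE 0.21, 95% interval 0.01 to 0.93). This did not pass the threshold, with a limma adjusted p of 0.214, and adjusted p ran from 0.137 to 0.415 over 18 alternatives.

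Smc3, the other arm of the ring in mitosis and meiosis alike, measured 154, 153, 106 and 74.8 RPM in Setd1b cKO and 154, 175 and 78.5 RPM in Setd1b WT. The lowest oocytes were cKO replicate 4 and WT replicate 3, with cKO replicate 3 between them and the rest. The log2 fold change was -0.13 (SE 0.34, 95% interval -0.88 to 0.61, adjusted p = 0.874).

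Stag3, the meiotic subunit that sits on the kleisin, was near the limit of detection, at 1.09, 0.247, 0.871 and 2.68 RPM in Setd1b cKO and 2.11, 2.70 and 1.59 RPM in Setd1b WT. These were 3 to 23 reads in cKO and 17 to 35 reads in WT. The cKO replicates 1 to 3 lay below every WT oocyte and cKO replicate 4 among the highest. Its log2 fold change was -0.59 (SE 0.37, 95% interval -1.41 to 0.23, adjusted p = 0.405), so that neither no change nor a 2-fold fall was outside the interval. The size depended on the pseudocount, at -1.09 with 0.1 RPM and -0.21 with 5 RPM, and was -1.23 on the values as deposited, -1.31 with voom and -0.35 without cKO replicate 2.

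Rad21l, a meiotic kleisin, varied most between oocytes, at 1.48, 23.1, 10.0 and 1.75 RPM in Setd1b cKO and 8.34, 7.48 and 3.27 RPM in Setd1b WT. The cKO oocytes alone spanned 15.5-fold, from 15 to 280 reads, and the WT range lay inside the cKO range. Mean RPM was higher in cKO (9.08 ± 10.1, SD, n = 4) than in WT (6.36 ± 2.71, SD, n = 3), whereas the log2 fold change was -0.10 (SE 0.72, 95% interval -1.68 to 1.49, adjusted p = 0.962). The sign of the log2 value turned when cKO replicate 1 was left out, to 0.37, when cKO replicate 4 was left out, to 0.32, and when WT replicate 1 or 2 was left out.

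Rec8, the kleisin that separase cleaves to release the chromosomes, could not be measured. The gene lies at chr14:55618037-55625395 on the plus strand, and the only transcript with its name and strand covered 634 of its 7359 bases, 8.62% of the gene. That fragment had 0 reads in all 7 libraries, which allows up to 0.231 to 0.350 RPM per library, the level of 3 reads. The value concerns the fragment and not the RNA of Rec8.

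Sgo2a, the shugoshin that shields centromeric cohesin from separase, lies at chr1:57995971-58025899 on the plus strand, in a transcript named for Kctd18. It measured 22.6, 33.1, 25.9 and 19.2 RPM in Setd1b cKO and 18.3, 31.2 and 15.3 RPM in Setd1b WT. Oocytes of both genotypes shared most of this range. The log2 fold change was 0.25 (SE 0.29, 95% interval -0.40 to 0.89, adjusted p = 0.694).

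**Figure D3:**
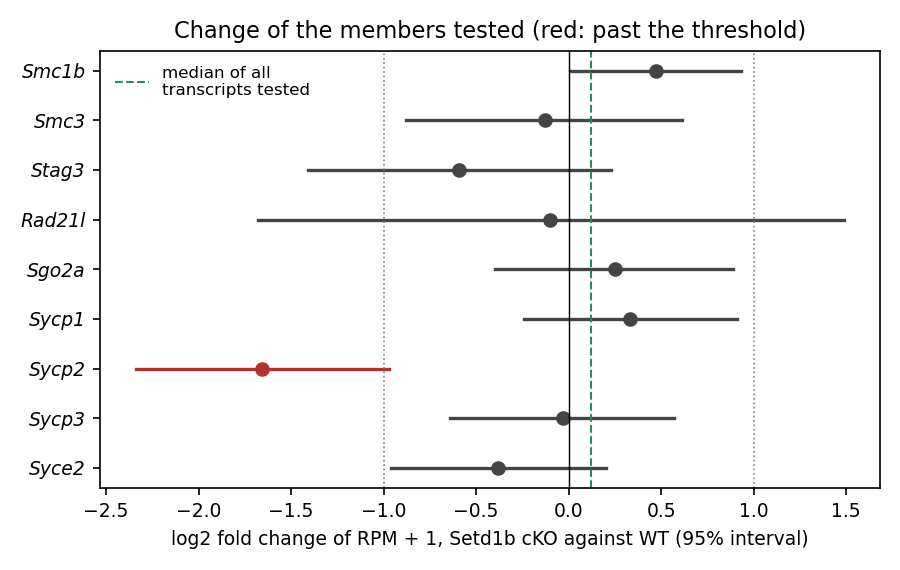
Log2 fold change of log2(RPM + 1), Setd1b cKO against WT (x axis), of each tested gene, with the 95% interval of the limma fit as a line, dotted lines at a 2-fold change and a green dashed line at 0.12, the median of all transcripts tested. The interval of Sycp2 (red) runs from -2.34 to -0.97, and Smc1b is the other gene whose interval leaves out 0, from 0.01 to 0.93.

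Levels were compared between genes as RPM per kilobase of exon. Lengths were those of all GENCODE release M21 exons of a gene, and not of its oocyte transcript. In Setd1b WT, Syce2 stood at 194 ± 62.2 and Sycp3 at 109 ± 34.1 RPM per kilobase, followed by Smc3 at 24.5 ± 9.13 (SD, n = 3 for each). The lowest Syce2 value was 147 and the highest Sycp3 value 146, a margin that depends on the exon lengths used. Smc3 reached no more than 31.5 RPM per kilobase. Both of these synaptonemal complex genes therefore had higher RNA levels per length than any cohesin gene of the list that could be measured.

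A middle group held Sycp1 at 12.8 ± 4.15, Sycp2 at 12.5 ± 6.19 and Smc1b at 11.2 ± 1.63 RPM per kilobase in WT, and these neighbours overlapped. Smc3 overlapped the same group, with 14.2 as its lowest value against 19.5 as the highest of Sycp2. Rad21l at 3.84 ± 1.63 and Sgo2a at 3.09 ± 1.20 RPM per kilobase overlapped each other and lay below that group, and Stag3 was lowest at 0.372 ± 0.0967. In Setd1b cKO, Sycp2 left the middle group, at 3.58 ± 0.646 RPM per kilobase, beside Sycp1 at 15.9 ± 3.04 and Smc1b at 15.5 ± 1.74 (SD, n = 4 for each).

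In several genes the extreme values came from the same pair of oocytes, 1 of each genotype. Against the mean of the other oocytes of their genotype, Smc3 differed by -0.87 on the log2 scale in cKO replicate 4 and by -1.06 in WT replicate 3. The same oocytes were lowest for Sgo2a, at -0.48 and -0.66, and highest for Syce2, at 0.58 and 0.74. For Stag3 they went apart, at 1.08 and -0.39, and for Sycp1, at 0.11 and -0.54. For Smc1b, Sycp2 and Rad21l the WT oocyte was lowest and the cKO oocyte second lowest, and for Sycp3 both were second lowest. These genes were set side by side after their values were seen. What sets these oocytes apart was not tested.

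Meiotic genes were next set against their mitotic counterparts within each oocyte, as log2 ratios of RPM + 1. The log2 ratio of Smc1b to Smc1a was 0.14, 0.48, 0.08 and 0.29 in Setd1b cKO and 0.15, -0.69 and -0.73 in Setd1b WT. WT replicate 1 fell inside the cKO range and the other WT oocytes below it. The mean difference was 0.67 (cKO 0.25 ± 0.18, SD, n = 4, WT -0.43 ± 0.50, SD, n = 3, 2-sided exact permutation p = 0.0857, adjusted p = 0.229 over 4 ratios).

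The ratio of Stag3 to Stag2, another subunit at the same place on the ring, differed by -0.71 (exact permutation p = 0.171, adjusted p = 0.229), and by -1.21 and -0.31 with pseudocounts of 0.1 and 5 RPM. Rad21l to Rad21, the mitotic kleisin, differed by -0.37 (exact permutation p = 0.686, adjusted p = 0.686), and Sgo2a to Sgo1, the other shugoshin, by 0.41 (exact permutation p = 0.171, adjusted p = 0.229). Genotypes overlapped in all 4 ratios, and 0.0286 was the smallest p that 4 against 3 oocytes allow. Mitotic subunits were themselves present, Smc1a at 61.7 ± 14.2, Rad21 at 32.4 ± 3.51 and Stag2 at 20.8 ± 3.87 RPM in WT (SD, n = 3), with log2 fold changes of -0.20, 0.27 and 0.12 and adjusted p of 0.665, 0.504 and 0.820. The 4 mitotic core subunits, Stag1 included, had a median log2 fold change of 0.19 and 0 calls. Per kilobase of exon, Smc1a at 10.7 RPM was close to Smc1b at 11.2 in WT, whereas Stag2 at 2.51 lay above Stag3 at 0.372.

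**Figure D4:**
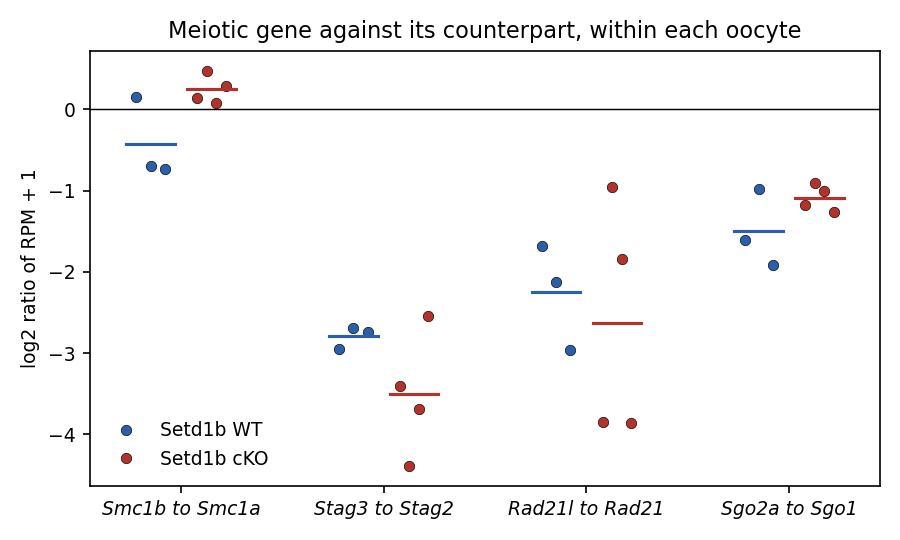
Log2 ratio of RPM + 1 (y axis) of each meiotic gene to its counterpart (x axis) in each oocyte, with blue points for Setd1b WT, red points for Setd1b cKO and bars for the means. Genotypes overlap in every pair, and the ratio of Rad21l to Rad21 spreads from -3.86 to -0.95 in Setd1b cKO.

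A wider set of 105 genes that work with these proteins was counted in 7 lists. Of these, 96 had a transcript of their own and 87 were tested, and 1 rose and 0 fell past the threshold, against 5.71% of all transcripts tested in either direction. An unadjusted p under 0.05 was reached by 7, which is 8.05% against 21.7% of all transcripts, and voom also called 1 higher and 0 lower. The median log2 fold change was 0.10, with 49 genes above 0 and 38 below.

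The gene that rose was Dscc1, a subunit of the clamp loader that couples cohesion to replication, in the list of loading, release and establishment factors (13 tested, median log2 fold change 0.11). Its level was 19.7, 37.1, 21.2 and 17.7 RPM in Setd1b cKO and 11.1, 9.25 and 6.08 RPM in Setd1b WT. All cKO oocytes were above all WT oocytes, with a log2 fold change of 1.32 (SE 0.31, adjusted p = 0.0325). The call was lost without any single library other than cKO replicate 4, with limma adjusted p from 0.0634 to 0.107. Without cKO replicate 4 the call was kept (adjusted p = 0.0179), and with no filter on low values it was lost (adjusted p = 0.131).

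In the same list Chtf18, the partner of Dscc1 in the clamp loader, named here after its values were seen, measured 5.77 ± 0.340 RPM in cKO (SD, n = 4) and 3.20 ± 1.03 RPM in WT (SD, n = 3), 0.72 apart on the log2 scale (adjusted p = 0.156). The acetyltransferase Esco2, the most abundant of the list, measured 515 ± 53.3 and 506 ± 12.0 RPM (log2 fold change 0.02, adjusted p = 0.973). Wapl, which opens the ring, measured 403 ± 152 RPM in cKO and 503 ± 202 RPM in WT, a log2 fold change of -0.33 (adjusted p = 0.712). Cdca5, the sororin that counters Wapl, was at -0.23 (adjusted p = 0.681).

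Genes of cohesin protection and cleavage (12 tested, median log2 fold change 0.04) had 0 calls. Pttg1, the securin that holds separase in check, was the most abundant, at 2743 ± 970 RPM in cKO (SD, n = 4) and 3206 ± 936 RPM in WT (SD, n = 3), a log2 fold change of -0.25 (adjusted p = 0.722). The kinase Bub1, whose mark recruits shugoshin, was at 0.20 (adjusted p = 0.734), Ppp1r7, a regulator of protein phosphatase, at -0.12 (adjusted p = 0.780), and Sgo1 at -0.16 (adjusted p = 0.699).

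Other genes of the synaptonemal complex and axis (9 tested, median log2 fold change -0.09) also had 0 calls. Tex12, which pairs with SYCE2 in the central element, measured 54.5 ± 9.60 RPM in cKO (SD, n = 4) and 72.2 ± 27.5 RPM in WT (SD, n = 3), a log2 fold change of -0.34 (adjusted p = 0.567). Iho1, an axis protein of break formation, was at 0.05 (adjusted p = 0.937), and Brme1, of the BRCA2 pathway, at -0.27 (adjusted p = 0.711). Sycp2 thus had no companion past the threshold among the genes tested for this structure.

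Meiotic recombination genes (24 tested, median log2 fold change 0.13) had 0 calls as well. Tex15, a germ cell gene needed for break repair and transposon silencing, was named after its values were seen, for the largest fall of these lists. It measured 32.0, 24.3, 12.1 and 30.8 RPM in Setd1b cKO and 109, 71.6 and 31.5 RPM in Setd1b WT, with WT replicate 3 inside the cKO range. Its log2 fold change was -1.39 (SE 0.43, adjusted p = 0.0858). Tex15 did pass the threshold with the replicate block and without WT replicate 3. The abundant repair genes Sfr1, Swi5 and Exo1 were at -0.09, 0.13 and 0.35 (adjusted p = 0.869, 0.834 and 0.519).

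Condensin and Smc5/6 genes (13 tested, median log2 fold change -0.07) had 0 calls. Nsmce2, the SUMO ligase of the Smc5/6 complex, measured 366, 312, 405 and 443 RPM in Setd1b cKO and 558, 549 and 713 RPM in Setd1b WT. All cKO oocytes were below all WT oocytes, with a log2 fold change of -0.67 (SE 0.22, adjusted p = 0.0968). Ncapg, a condensin subunit, was also at -0.67 (SE 0.27, adjusted p = 0.173) with overlapping oocytes, and the condensin arm Smc4 at -0.29 (adjusted p = 0.522).

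Regulators of meiotic genes (12 tested, median log2 fold change 0.06) had 0 calls. Dazl, the germ cell translation regulator whose targets include Sycp3, measured 561 ± 94.7 RPM in cKO (SD, n = 4) and 664 ± 113 RPM in WT (SD, n = 3), a log2 fold change of -0.24 (adjusted p = 0.605). Pcgf6, a subunit of that repressor complex, was at -0.29 (adjusted p = 0.443). Wdr5, a shared subunit of histone H3 lysine 4 methyltransferases, was at 0.01 (adjusted p = 0.988).

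**Figure D5:**
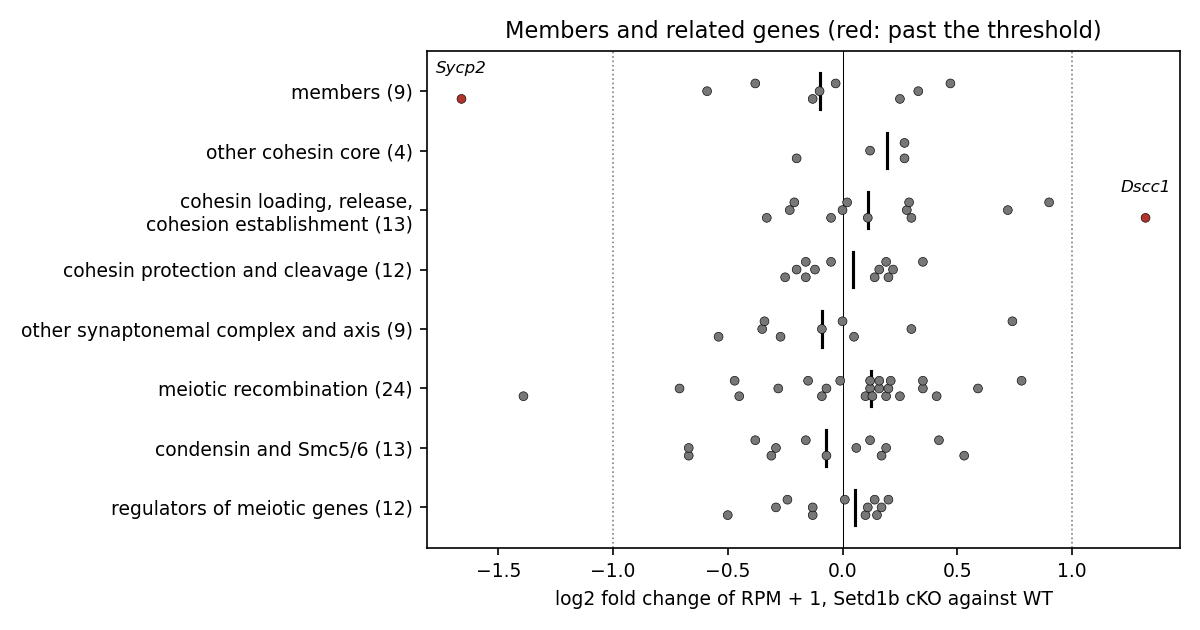
Log2 fold change, Setd1b cKO against WT (x axis), of the 9 tested genes of the list and of 87 related genes in 7 lists (y axis, number tested in brackets), with a point per gene, a black bar at each median and dotted lines at a 2-fold change. Red points are past the threshold, Sycp2 at -1.66 and Dscc1 at 1.32.

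Libraries held 8582493 to 12972366 mapped reads, so that 3 reads were worth 0.231 to 0.350 RPM. RPM is a share of a library and not an amount of RNA per oocyte. Setd1b itself ran from 2.68 to 16.7 RPM in cKO and from 8.61 to 17.7 RPM in WT, over a transcript of which the floxed part is only a piece. A transcript of 10.5 RPM on the opposite strand covered 100% of its span, so that its level could be that of either strand and did not check the labels. Oocyte marker genes (11 of 12 with a transcript) summed to 11460 to 17777 RPM in cKO and 15919 to 22310 RPM in WT, with 0 past the threshold and a lower mean in cKO for 10 of 11. Among them the egg coat gene Zp3 was lower in every cKO oocyte than in any WT oocyte, at 3790 ± 358 RPM (SD, n = 4) and 4801 ± 78.7 RPM (SD, n = 3), which was -0.35 on the log2 scale (limma adjusted p = 0.433). Granulosa cell markers (15 of 16 with a transcript) summed to 26.6 to 58.9 RPM in cKO and 24.4 to 43.0 RPM in WT, with 0 past the threshold and a higher mean in cKO for 13 of 15. Cyp19a1, whose transcript covers 19.6% of its gene, made up 45.5% to 73.2% of that sum in cKO and 63.4% to 70.1% in WT, and without it the sums were 7.11 to 31.6 RPM in cKO and 7.30 to 15.7 RPM in WT. Inha, a hormone subunit of granulosa cells, was at 8.07 ± 5.63 RPM in cKO (SD, n = 4) and 1.71 ± 2.29 RPM in WT (SD, n = 3), 1.70 apart on the log2 scale (limma adjusted p = 0.225). Among these markers, Foxl2 and Amh had 0 reads in every WT library and at most 0.174 RPM in cKO. Fshr, by contrast, ran from 0 to 5.15 RPM in cKO and from 0 to 2.92 RPM in WT. Like Inha and Cyp19a1, Fshr therefore had reads in both genotypes. The part of granulosa cell RNA, or of the lower oocyte marker levels, in the results above was not tested.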

How the data were processed

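Single-oocyte cDNA was amplified with the SMARTer kit by the authors, sequenced as single reads, mapped with Hisat to GRCm38 and filtered for mapping quality. They counted reads in SeqMonk over merged oocyte transcripts, and strand use in counting is not given in the sources used here. Values were deposited by the authors as log2 RPM, relative to the mapped reads of each library. Of values above the floor, 100% came out as whole reads within 0.1 read.

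Values were transformed to log2(RPM + 1). Transcripts that reached 1 RPM in 3 or more libraries were fitted with lmFit and eBayes (trend) in limma 3.58.1 (R 4.3.3), 4 Setd1b cKO against 3 Setd1b WT, with Benjamini-Hochberg adjustment over all 18179. Replicates are single oocytes, and p-values measure the spread between these libraries. Genes without a transcript of their name were matched on GENCODE release M21 by strand and position, with an overlap of at least 0.5 of the union. The same limit was applied to related genes found by name, but not to members or cell markers found by name. Ratios were tested by exact permutation over 35 arrangements. A planned ratio of Rec8 to Rad21 was not computed because Rec8 had 0 reads. Sequences came from RefSeq promoters. Python 3.11.15 was used otherwise, and the fit was tested on simulated data.

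Named genes were all members, the genes past the threshold and the 3 of highest mean RPM in each related list, and the counterparts in the ratios. Members and lists were chosen with earlier results of these data known. Alternatives were other pseudocounts, the log2 values as deposited, filters, centring, quantile normalisation, no trend, a replicate block and each library left out. Scaling to reads within transcripts and voom were added after the data had been seen.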

Additional observations from a re-analysis of the deposited data

Results flagged for a closer look

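Of 36 values in Setd1b cKO that were examined gene by gene, 4 had 1 oocyte far from the other 3, where chance gives about 1 in 20, or 1.80 of 36. All 4 were related genes and none was a gene of the main list. The distance is the gap to the nearest other oocyte as a share of the range, judged against Dixon's critical value for 4 oocytes. Wapl was 176 RPM in cKO replicate 4 against 459 to 502 RPM in the others (0.870). Sfr1 was 861 RPM in cKO replicate 4 against 1216 to 1222 RPM (0.981). Bub1 was 147 RPM in cKO replicate 2 against 97.2 to 105 RPM (0.849). Wdr5 was 41.2 RPM in cKO replicate 1 against 49.6 to 50.5 RPM (0.908). The 3 Setd1b WT oocytes are too few for this rule.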

How the results depend on the processing

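Sycp2 kept its direction in all 18 alternatives and stayed past the threshold in 16, with log2 fold changes from -1.94 to -1.29. It was lost with no filter on low values (-1.66, adjusted p = 0.0946) and without WT replicate 2 (-1.76, adjusted p = 0.0556). The count of list genes that fell was therefore 0 with no filter and from 0 to 1 with single libraries left out. The count of related genes that rose was 0 with no filter and from 0 to 1 with single libraries left out, and that of related genes that fell was 1 with the replicate block and from 0 to 1 with single libraries left out, Tex15 in both cases. Dscc1 was past the threshold in 11 of 18 alternatives (adjusted p = 0.131 with no filter). Stag3 could not be fitted with a mean of at least 4 RPM.

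The replicate numbers are not said to mark anything shared. In their deviations from the mean of their genotype, same-numbered oocytes correlated at 0.192, 0.295 and -0.129. Such deviations cancel out within a genotype, which ties these correlations to each other, so they cannot decide whether oocytes were paired. Not every oocyte correlated best with its own number. Since cKO replicate 4 has no WT oocyte of its number, the block takes it out of the contrast. The log2 fold changes of the named genes were the same with the block as without that oocyte. With the block, 924 transcripts were higher and 479 lower, without cKO replicate 4 alone 850 and 437, and in the fit reported 683 and 355. In both of these alternatives log2 fold changes turned for Smc3 (0.08), Sycp3 (0.01), Rad21l (0.32), Wapl (0.03), Sfr1 (0.03) and Wdr5 (-0.01), none of which passed the threshold. With the block Sycp2 was at -1.59 (adjusted p = 0.0146).

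The median of all transcripts was 0.12 in the fit reported, -0.03 with centring, 0.01 with quantile normalisation and 0.20 with scaling within transcripts, and the counts of higher and lower transcripts were 683 and 355, 458 and 531, 428 and 442, and 836 and 310. Some log2 fold changes changed sign with the setting. With centring these were Stag2 (-0.04), Esco2 (-0.14), Iho1 (-0.11), Swi5 (-0.02) and Wdr5 (-0.15). With quantile normalisation they were Pttg1 (0.09), Iho1 (-0.05) and Sfr1 (0.07). Sycp3 was at 0.04 with scaling within transcripts, and Rad21l at 0.07 with a pseudocount of 5 RPM.

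With single libraries left out, log2 fold changes crossed 0 for Smc3 (-0.48 to 0.09), Sycp3 (-0.25 to 0.20), Rad21l (-0.72 to 0.37), Stag2 (-0.04 to 0.20), Esco2 (-0.04 to 0.08), Wapl (-0.73 to 0.03), Bub1 (-0.04 to 0.42), Iho1 (-0.09 to 0.14), Brme1 (-0.44 to 0.02), Sfr1 (-0.21 to 0.03), Swi5 (-0.00 to 0.39) and Wdr5 (-0.03 to 0.08). The ratio of Rad21l to Rad21 ran from -0.93 to 0.04. Causes of these changes were not tested. Without WT replicate 2 the counts over all transcripts were 171 higher and 109 lower. Stag3 rested on 3 to 35 reads per library, and its log2 fold change ran from -1.31 to -0.21 over the alternatives.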
